A study of Mus musculus with 12 samples.

Results

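The genes described here were the neighbours of Cyp2e1 on mouse chromosome 7. A gene was included when its listed start lay within 5 Mb of the start or end of Cyp2e1 (mm39, chr7:135343652-145354900) and when it had at least 10 counts in 3 or more of the 12 libraries. Of 317 genes listed in that window, 148 had 0 counts in every library and 225 fell below the minimum. A further 5 genes above the minimum, Cyp2e1 among them, were left out by the rule. This left 87 members of the 56748 genes in the table, of which 80 were protein-coding, 4 were pseudogenes and 3 were long non-coding RNAs. On the side of lower coordinates, called "before" Cyp2e1, lay 17 members, and 70 lay after it. The last gene start listed on chromosome 7 was at 144868572, so the window ran past the last listed gene. Counts, but no fold change, entered the rule.

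The samples were livers of mice at 16 weeks of age, kept on normal chow. Wild type mice were of the line 129S1/SvImJ, and knockout mice were of the line 129/Sv-Cyp2e1tm1Gonz/J, which carries a targeted Cyp2e1 allele in every cell. Each sex and line gave 3 biological replicates, which makes 4 groups by sex and line. Each comparison of knockout with wild type was also a comparison of 2 separately named lines, and the allele and the line cannot be told apart. The question put to the data was whether expression near the targeted allele differed between them.

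CYP2E1 is the cytochrome P450 of hepatocytes that oxidises ethanol, acetone and paracetamol. A targeted allele stays joined to the DNA of the embryonic stem cell in which it was made, and breeding replaces that flanking DNA only slowly close to the target. The genes around Cyp2e1 share no pathway. They include a row of mitochondrial and polyamine enzymes just before it, a gene-dense stretch after it with interferon-induced transmembrane genes and Hras, and, further on, the imprinted genes from H19 to Osbpl5, of which many are expressed from 1 parental copy.

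Total counts per library ran from 15167730 to 25082532, and levels are given as CPM, the counts scaled to a common library size after TMM normalisation. Cyp2e1 stood at 6213 to 7076 CPM in female and 10374 to 11480 CPM in male wild type livers. In knockout livers it stood at 230.2 to 322.6 and 317.9 to 402.9 CPM, a log2 change of -4.72 ± 0.14 (SE; edgeR adjusted p = 6.99e-10). The 6 hepatocyte markers summed to 64240 to 109033 CPM in all libraries. Female knockout replicate 2 also held transcripts of fast skeletal muscle: Tnnt3, a gene of the window below the count minimum, had 180 counts there and at most 1 in any other library. Libraries further differed from each other in how counts depended on gene length. Each gene's log2 CPM, minus its mean over the 12 libraries, was regressed on log2 gene length within each library. A slope is thus relative to the average library, and its sign is not that of expression against length. The slope was -0.19 ± 0.04 in female wild type and 0.19 ± 0.10 in female knockout livers (SD, n = 3 each), with no overlap. In males it was -0.02 ± 0.13 in wild type and 0.03 ± 0.17 in knockout livers, with overlap.

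The neighbours of Cyp2e1 were called about as often as genes elsewhere. A call means an adjusted p under 0.05 in edgeR's quasi-likelihood test, with Benjamini-Hochberg adjustment over the 14003 genes tested. Of the 87 members, 83 were tested. In the mean of both sexes 14 members differed (16.9%), 4 higher and 10 lower in knockout livers. Among all genes 15.1% were called there, 7.78% higher and 7.29% lower. In females 33 members differed (39.8%), 11 higher and 22 lower, against 36.5% of all genes (17.7% higher and 18.8% lower). In males 0 members were called by edgeR, against 0.0571% of all genes. DESeq2 also called 0 members in males (0.253% of all genes), and 3 members had an unadjusted p under 0.05, as did 4.84% of all genes. The difference of the effect between sexes gave 0 member calls in edgeR, where 0% of all genes were called, 24 members with an unadjusted p under 0.05 (22.5% of all genes), and 1 member call in DESeq2. DESeq2 called 27 members in the mean of both sexes and 39 in females, beside 28.3% and 42.3% of all genes. The median log2 change of the members was -0.01 in the mean of both sexes, beside 0.02 for all genes. In females the medians were -0.04 and 0.05, and in males -0.07 and -0.0028.

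Called members lay in every class of distance from Cyp2e1. Within 0.5 Mb lay 24 tested members, all after Cyp2e1, of which 5 were called in the mean of both sexes and 9 in females. Between 0.5 and 1 Mb 4 and 13 of 22 were called. Between 1 and 2.5 Mb 3 and 7 of 18 were called, and beyond 2.5 Mb 2 and 4 of 19. These counts stand beside 15.1% of all genes called in the mean of both sexes and 36.5% in females. A trend of calls with distance was not tested. The plot of changes along the chromosome shows called members from Mgmt, 3.85 Mb before Cyp2e1, to Shank2, 3.21 Mb after it. None of the members beyond Shank2 was called in any of the 3 comparisons.

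**Figure D1:**
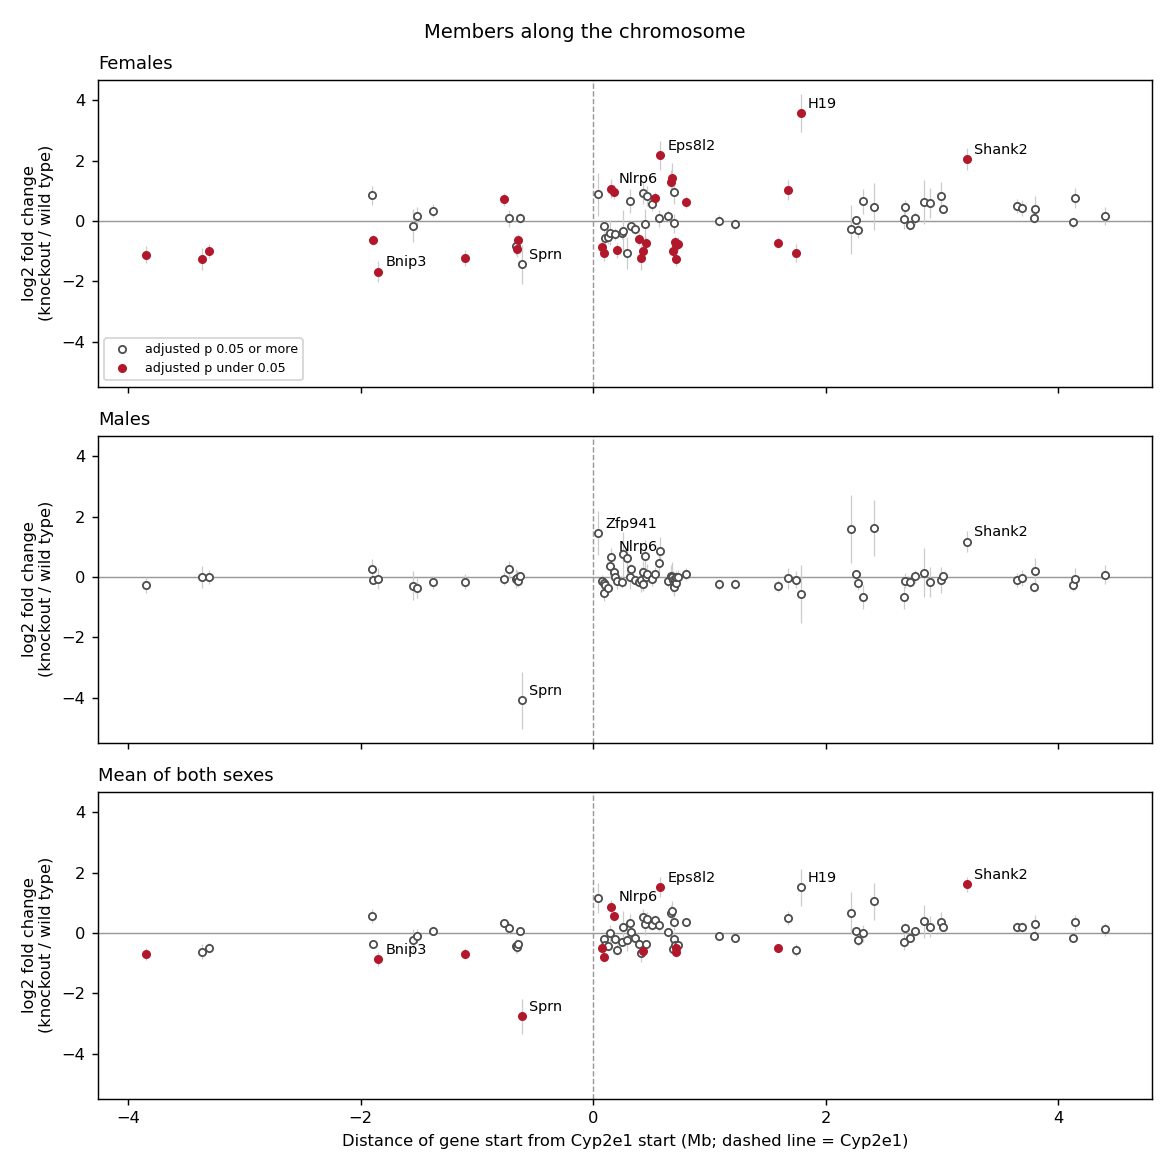
Log2 fold change (knockout over wild type, ± SE) of the 83 tested members against the distance of their start from the start of Cyp2e1 in Mb, in females, males and the mean of both sexes. Filled points are the 33, 0 and 14 members called in each panel, and they lie from 3.85 Mb before to 3.21 Mb after Cyp2e1, with Sprn lowest in males and in the mean.

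The member with the largest fall, and the nearest one before Cyp2e1, was Sprn (ENSMUSG00000045733, minus strand, chr7:139730541-139734790), 613.1 kb away. Sprn encodes Shadoo, a prion-like membrane protein best known in brain. In female wild type livers it measured 0.473, 1.28 and 1.03 CPM, and in female knockout livers 0.356, 0.232 and 0.403 CPM. In male wild type livers it measured 1.17, 0.839 and 0.124 CPM, and in male knockout livers 0.0540, 0 and 0.0466 CPM. In each sex all 3 knockout libraries lay below all 3 wild type libraries, although male wild type replicate 3 came close to the knockout livers. Sprn was the 1 member whose groups were apart in the same direction in both sexes, as were 2.89% of all genes.

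The change of Sprn in the mean of both sexes was -2.76 ± 0.58 on the log2 scale (edgeR adjusted p = 0.0265), a 6.77-fold lower level. It was -1.44 in females (adjusted p = 0.0935) and -4.08 in males (adjusted p = 0.398), and neither passed alone. The male value rests on 42 counts in wild type (25, 15 and 2) and 2 in knockout livers. Their ratio at equal library size was 20.4, with an exact 95% counting interval of 5.31 to 174. That interval pools the counts of each group and covers counting noise alone. It leaves out the spread between mice, so it says nothing about how the ratio would vary in other animals. The call held in 6 of 12 fits that each left out a library. It was lost without female wild type replicate 1 (adjusted p = 0.0560) or 2 (0.0737), female knockout replicate 2 (0.0731), male wild type replicate 1 (0.0644), or male knockout replicate 1 (0.0766) or 3 (0.0732), while the log2 change stayed between -3.00 and -2.47 in all 12. With a length slope for the libraries in the model the change was -3.22 (adjusted p = 0.157).

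Sprn overlaps Mtg1, a GTPase of mitochondrial ribosome assembly, by 159 bases on the other strand. Mtg1 measured 15.5, 15.2 and 17.1 CPM in female wild type and 18.99, 15.6 and 16.9 CPM in female knockout livers, and its change in the mean of both sexes was 0.06 ± 0.11 (adjusted p = 0.705). Between Sprn and Cyp2e1 the table lists 29 genes, 25 of them olfactory receptor genes, and none exceeded 20 counts over all 12 libraries. Sprn was therefore the closest gene on that side with counts enough to be a member.

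The bases upstream of the Sprn start site are shown because this member stood apart in both sexes. They are the 250 bases before the start in RefSeq's GRCm38.p6 annotation (chr7:140154660-140154909, minus strand, 5′ to 3′), with each CG pair in capitals, the pair at which mammalian DNA is methylated.
Sprn: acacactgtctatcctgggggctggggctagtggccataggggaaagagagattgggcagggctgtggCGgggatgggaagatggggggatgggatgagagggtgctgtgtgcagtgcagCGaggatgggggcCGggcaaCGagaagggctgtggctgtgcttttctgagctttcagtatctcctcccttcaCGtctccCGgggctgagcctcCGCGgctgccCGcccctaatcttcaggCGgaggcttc
The stretch holds 10 CG pairs, and 37.8% of the 32851 windows of this length in the table hold as many or more. Its GC content is 63.2%. The letters TATAAA occur in it on neither strand, and 12.4% of all windows hold them. Of the 87 members, 64 had an entry in that table.

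The other genes just before Cyp2e1 did not pass the test in the mean of both sexes. Paox, a polyamine oxidase, and Echs1, the mitochondrial enoyl-CoA hydratase of fatty acid oxidation, were lower in female knockout livers, at -0.62 (adjusted p = 0.0302) and -0.91 (0.0218). Echs1 measured 482, 725 and 536 CPM in female wild type and 314, 277 and 333 CPM in female knockout livers, which did not overlap. In males it measured 417, 334 and 560 against 381, 603 and 299 CPM, which did. Fuom, a fucose mutarotase, had a female change of -0.81 (adjusted p = 0.0625). Tubgcp2, a subunit of the gamma-tubulin complex, was higher in female knockout livers by 0.71 (adjusted p = 0.0217), and its head-to-head neighbour Zfp511 had a change of 0.08 (adjusted p = 0.824). With the length slope in the model the female change of Echs1 became 0.11 and that of Paox 0.021, neither called. In the next member before Tubgcp2, the processed pseudogene Gm4459, the mean change was -0.69 (adjusted p = 0.0369). It was -0.12 (adjusted p = 0.478) with a smooth length trend removed from each library, and -0.21 (0.578) with the length slope in the model. Reads of a processed pseudogene may come from its parent gene. Its call held in 2 of 12 fits that left out a library, those without male wild type replicate 2 or male knockout replicate 2.

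After Cyp2e1, the nearest member was Zfp941, a zinc finger gene 43.7 kb away. It measured 0.284, 0.701 and 0.836 CPM in female wild type and 0.845, 1.11 and 1.32 CPM in female knockout livers. In males it measured 0.890, 0.391 and 0 against 1.94, 1.09 and 0.699 CPM, which overlapped. Its change in the mean of both sexes was 1.17 ± 0.50 (adjusted p = 0.104). Urah, which hydrolyses 5-hydroxyisourate in urate breakdown, came next at 71.3 kb. It stood at 289, 318 and 353 CPM in female wild type and 205, 143 and 178 CPM in female knockout livers, and the male groups overlapped. Urah was lower in the mean of both sexes by -0.51 ± 0.15 (adjusted p = 0.0458).

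Bet1l, a SNARE protein of the Golgi, was the member most reduced among the near genes after Cyp2e1. It measured 29.4, 28.1 and 26.2 CPM in female wild type and 15.4, 12.5 and 12.4 CPM in female knockout livers. Male wild type livers measured 26.3, 18.3 and 35.8 CPM and male knockout livers 15.7, 25.9 and 14.4 CPM. The female groups were apart and the male groups were not, because male wild type replicate 2 was low and male knockout replicate 2 was high. The mean change was -0.79 ± 0.19 (adjusted p = 0.0324). Its overlapping partner on the other strand, the G-alpha chaperone gene Ric8a, had a change of -0.19 (adjusted p = 0.314), and Sirt3, a mitochondrial deacetylase, one of -0.41 (adjusted p = 0.0663). The pseudogene Gm15542 and the long non-coding RNA BC024386 had changes of -0.44 and -0.01, not called.

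Nlrp6, a NOD-like receptor that senses microbial products, was higher in knockout livers. It measured 52.9, 51.9 and 94.9 CPM in female wild type and 183, 131 and 105 CPM in female knockout livers. In males it measured 80.9, 112 and 57.8 against 130, 110 and 158 CPM, and male knockout replicate 2 fell just below the highest wild type liver. The mean change was 0.87 ± 0.21 (adjusted p = 0.0338), with an unadjusted p of 0.0434 in males alone (adjusted p = 0.992). The neighbouring Pgghg, which encodes a glucosidase acting on collagen, changed by 0.56 ± 0.16 (adjusted p = 0.0421). It rose from 23.8 ± 2.65 to 45.8 ± 2.55 CPM in females (SD, n = 3) and stood at 30.4 ± 7.07 and 34.3 ± 10.0 CPM in males. Calls in the mean of both sexes held in 2 of 12 fits that left out a library for Urah and Pgghg, 3 for Bet1l and 4 for Nlrp6.

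**Figure D2:**
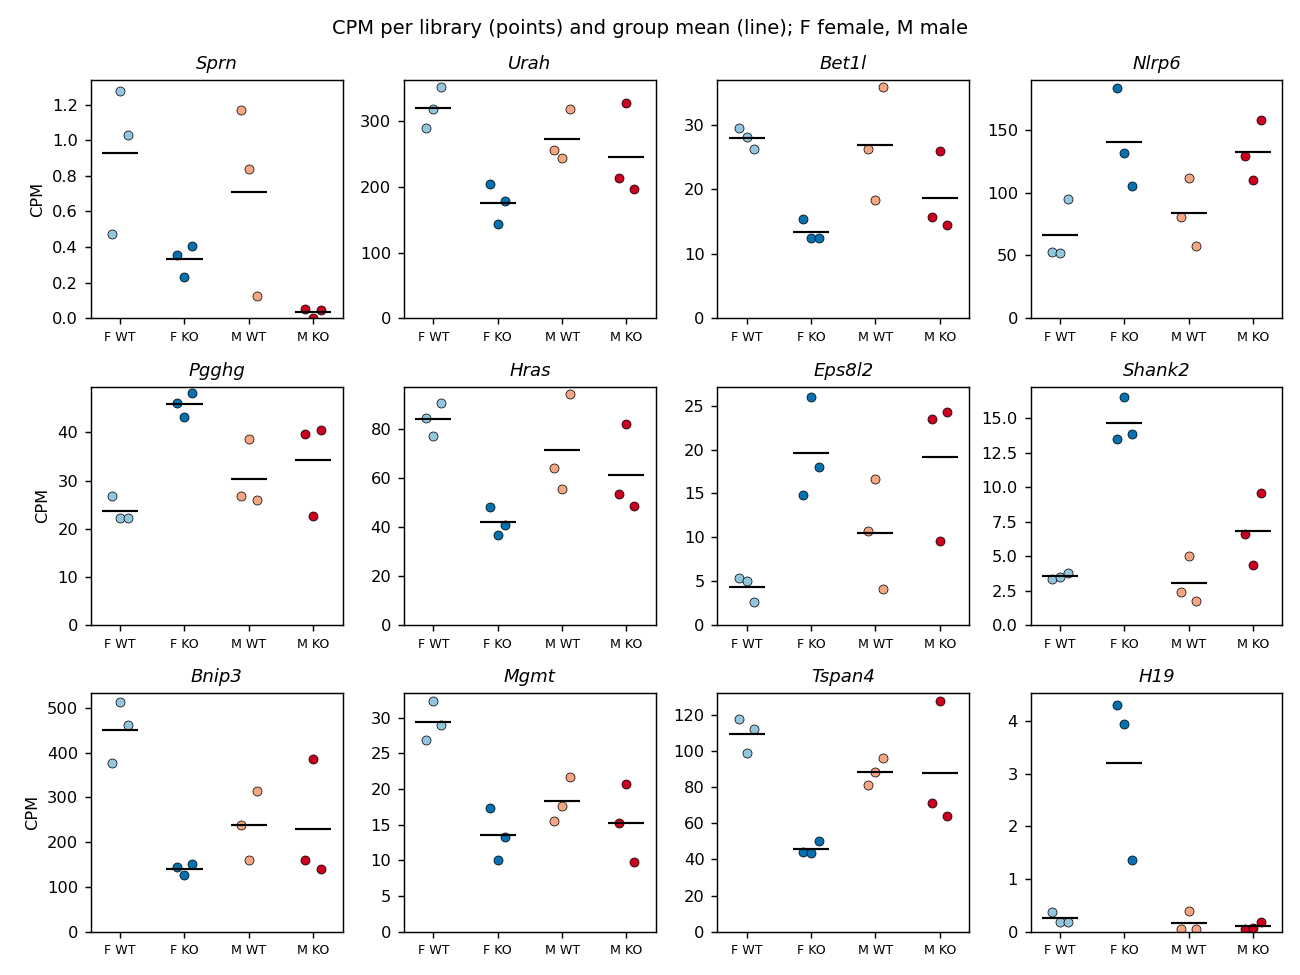
CPM of 12 named members in each of the 12 libraries (points) with the group mean (line); F is female, M is male, and each panel has its own axis from 0. The female groups lie apart in every panel, while the male groups are apart for Sprn and overlap for the other 11.

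Further from Cyp2e1, Shank2 had the smallest adjusted p of all members. Shank2 (ENSMUSG00000037541, plus strand, chr7:143555665-143978231), a scaffold protein of excitatory synapses and epithelial membranes, starts 3212 kb away. It measured 3.35, 3.51 and 3.80 CPM in female wild type and 13.5, 16.6 and 13.9 CPM in female knockout livers. In males it measured 2.39, 5.03 and 1.74 against 6.58, 4.34 and 9.60 CPM, so that 1 knockout liver lay below the highest wild type liver. The change was 1.61 ± 0.25 in the mean of both sexes (adjusted p = 0.0137), 2.04 in females (0.0132) and 1.17 in males (0.758). The mean call held in 11 of 12 fits and was lost without female knockout replicate 2 (adjusted p = 0.0506). The female call was lost without that library (0.0610) or without female wild type replicate 2 (0.0554). Shank2 has the longest transcript length of the called members, 11137 bases, and with the length slope in the model its mean change was 0.88 (adjusted p = 0.115).

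Eps8l2, an actin regulator at the tips of stereocilia and microvilli, starts 575.1 kb after Cyp2e1. It measured 5.34, 4.97 and 2.57 CPM in female wild type and 14.9, 26.0 and 18.0 CPM in female knockout livers. In males it measured 10.8, 16.7 and 4.15 against 23.5, 9.63 and 24.3 CPM. The female groups were apart, and the male groups overlapped through wild type replicate 2 and knockout replicate 2. The mean change was 1.52 ± 0.33 (adjusted p = 0.0292) and held in 5 of 12 fits. With the length slope in the model it was 0.46 (adjusted p = 0.433).

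The remaining calls in the mean of both sexes were lower in knockout livers. Bnip3, a mitochondrial receptor for mitophagy, stood at 376, 513 and 462 CPM in female wild type and 144, 128 and 152 CPM in female knockout livers. In males it stood at 239, 161 and 314 against 159, 386 and 141 CPM, with overlap. Its change was -0.86 in the mean (adjusted p = 0.0395) and -1.67 in females. Hras, a GTPase of growth factor signalling, fell by 0.61 on the log2 scale (adjusted p = 0.0381). Tspan4, a tetraspanin of migrating cells, fell by 0.63 (adjusted p = 0.0360), Polr2l, a small subunit shared by the RNA polymerases, by 0.49 (0.0470) and Ctsd, the lysosomal protease cathepsin D, by 0.51 (0.0376). Mgmt, which removes alkyl groups from guanine in DNA, was the most distant member before Cyp2e1 and fell by 0.69 (adjusted p = 0.0386). Polr2l held in 3 of the 12 fits that left out a library, and the other 5 in 2.

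In females alone the largest change belonged to H19 (ENSMUSG00000000031, chr7:142129262-142131886), an imprinted long non-coding RNA that is abundant in fetal liver and low in the adult. It measured 0.378, 0.191 and 0.193 CPM in female wild type and 4.31, 3.94 and 1.36 CPM in female knockout livers. Male livers of both lines stood between 0.0468 and 0.391 CPM. The female knockout livers stood above all other libraries, but H19 met the count minimum through that group alone, so its inclusion depended on this difference. The female change was 3.57 ± 0.64 (adjusted p = 0.0132), and it was lost without female wild type replicate 2 (0.0554) or female knockout replicate 2 (0.0610). In the mean of both sexes the change was 1.51 (adjusted p = 0.0928). Of the other 11 tested genes of the imprinted cluster, 0 were called in any of the 3 comparisons. Among all genes 15.1% were called in the mean of both sexes, 36.5% in females and 0.0571% in males. The female changes of the 11 ran from -0.31 in Tssc4 to 0.65 in Kcnq1. Some had few counts over all 12 libraries, such as Kcnq1ot1 with 127 and Tspan32 with 99, and nothing is read from a set this small.

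Several members were called in females and not in the mean of both sexes. Glrx3, a glutaredoxin of iron-sulfur handling, had a female change of -0.996 and Mrpl23, a mitochondrial ribosomal protein, one of -1.05. Rplp2, a stalk protein of the cytosolic ribosome, changed by -0.99. Slc25a22, a mitochondrial glutamate carrier, changed by 1.30 and Deaf1, a transcription factor, by 0.75. With the length slope in the model the signs of Mrpl23 (0.083) and Slc25a22 (-0.013) turned, and neither was called. The female calls went with groups that did not overlap: in 45 of 83 members every female knockout library lay above, or every one below, every female wild type library, as in 54.8% of all genes. In males the groups were apart in 6 members, as in 9.62% of all genes. Besides Sprn these were Lmntd2 and Tmem80, higher, and Mob2, Kcnq1 and Fadd, lower, with changes from -0.67 to 0.70 and none called.

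Grouped by role, the members showed no list in which most tested genes were called in the mean of both sexes. The counts of calls stand beside 15.1% of all genes called in the mean and 36.5% in females, and nothing is read from lists this small. Of 16 metabolic enzymes and carriers, 1 was higher (Pgghg) and 2 were lower (Mgmt and Ctsd), and in females 2 were higher and 6 lower. Chid1, a chitinase-domain protein, was among the latter at -0.77, and those not called in females ran from -0.81 in Fuom to 0.95 in Pnpla2, the adipose triglyceride lipase. Of 12 signalling and cell cycle genes, 0 were higher and 2 lower (Bnip3 and Hras), and in females 1 was higher and 4 lower. Besides Bnip3 and Hras these were Pidd1, a death-domain protein of the p53 response, at 1.43, Rassf7 at -0.73 and Ppp2r2d, a phosphatase subunit, at -0.64. The 7 not called in females ran from -0.17 in Ric8a to 0.77 in Ccnd1, the gene of cyclin D1. Of 13 genes of ribosome, transcription and protein handling, 2 were lower (Bet1l and Polr2l), and in females 2 were higher and 5 lower. Ap2a2, a subunit of the clathrin adaptor, was at 0.63 and the ribonuclease inhibitor Rnh1 at -0.59, and the 6 not called ran from -0.04 in LTO1 to 0.82 in Phrf1. Of 14 tetraspanin, adhesion and cytoskeleton genes, 2 were higher (Eps8l2 and Shank2) and 1 lower (Tspan4), and in females 4 were higher and 2 lower. The tetraspanin Cd151 was at -0.68 in females, and the 8 not called ran from -0.28 in Tspan32 to 0.66 in Pkp3. Of the 7 members flanking Cyp2e1 on the side before it, 1 was lower (Sprn), and in females 1 was higher and 2 lower. The lists' median changes in the mean of both sexes ran from -0.37 in the flanking genes to 0.28 in the tetraspanin, adhesion and cytoskeleton genes, beside 0.02 for all genes. No list had a call in males.

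The innate immune list had 1 call of 9 in the mean of both sexes, Nlrp6. In females Nlrp6 and Lsp1, an actin-binding protein of leukocytes, were higher and Ifitm1, an interferon-induced membrane protein, was lower at -0.97 (adjusted p = 0.0156). Lsp1 measured 1.70, 1.72 and 1.87 CPM in female wild type and 5.16, 3.10 and 2.57 CPM in female knockout livers, a change of 1.03 (adjusted p = 0.0292). Ifitm3, the member with the highest level per kb of transcript, had a female change of -0.41 (adjusted p = 0.124), and the 6 not called in females ran from -0.43 in Ifitm2 to 0.64 in Tnfrsf22. These values depended on gene length. With a smooth length trend removed from each library, Ifitm1 was at -0.15 (adjusted p = 0.523), Ifitm2 at 0.59 (0.0363) and Ifitm3 at 0.58 (0.0893). In that fit Nlrp6 was at 0.93 (0.0299) and Lsp1 at 0.88 (0.0732). With the length slope in the model Ifitm1 was at -0.11 (0.932). Markers of Kupffer cells and macrophages summed to 180.2 to 255.1 CPM in female wild type and 226.9 to 306.1 CPM in female knockout livers, and 4 of 11 were called higher in females. Markers of sinusoidal endothelium summed to 156.6 to 185.2 and 213.3 to 285.7 CPM, with 4 of 8 called higher and 0 lower. Of these, Clec4g had 895, 679 and 628 raw counts in female wild type and 865, 589 and 816 in female knockout livers. Raw counts are not scaled to library size, so on their own they give no direction. The totals of these libraries were 21961308, 16630424 and 16972940 in wild type and 21173865, 18718688 and 25082532 in knockout. Among all genes 17.7% were called higher in females. The part of gene length in these marker sums was not tested. Markers of lymphocytes and neutrophils summed to 3.12 to 8.94 and 3.57 to 14.0 CPM, with 1 of 5 tested called higher and the neutrophil marker Ly6g at 0 counts in all 12 libraries. The part of these cells in the changes of Lsp1, Nlrp6, Ctsd and Ifitm1 was not tested, and in bulk tissue fewer cells of a type and less RNA per cell cannot be told apart.

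Some members are divergent pairs that start close together on opposite strands, and the values of the partners are set side by side here. Differences between partners were not tested. Polr2l and Tspan4 are listed 107 bases apart, and both were lower in the mean of both sexes. Hras and Lrrc56 are listed 151 bases apart, and Hras was lower while Lrrc56 had a change of 0.54 (adjusted p = 0.127). Lrrc56 measured 2.03, 1.85 and 2.70 CPM in female wild type and 4.71, 4.07 and 3.70 CPM in female knockout livers, the opposite order to Hras in the same libraries. Hras measured 84.6, 77.0 and 90.4 CPM in female wild type and 48.1, 36.9 and 40.6 CPM in female knockout livers. With the length slope in the model the mean changes were -0.13 for Hras and 0.12 for Lrrc56, neither called. Those of Polr2l and Tspan4 were -0.17 and -0.32 in that fit, neither called. The bases between the RefSeq start sites of both pairs (GRCm38.p6, plus strand, 5′ to 3′) are shown with CG pairs in capitals. They were chosen because both partners of 1 pair were called in the mean, and only 1 of the other. They lie at chr7:141475154-141475235 and chr7:141194005-141194129.
Polr2l and Tspan4: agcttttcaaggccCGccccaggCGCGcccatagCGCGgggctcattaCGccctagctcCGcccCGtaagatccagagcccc
Hras and Lrrc56: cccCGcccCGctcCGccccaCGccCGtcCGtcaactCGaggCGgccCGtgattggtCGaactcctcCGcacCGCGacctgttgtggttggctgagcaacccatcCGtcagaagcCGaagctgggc
The shared stretch of Polr2l and Tspan4 has 82 bases with 8 CG pairs, and that of Hras and Lrrc56 has 125 bases with 15. Neither holds TATAAA on either strand. Among the 7 divergent or head-to-head pairs of members, both partners were called in the mean of both sexes in 1. Overlap on opposite strands touched 19 members whose partner had at least 100 counts, and no source used here gives the strand setting of the counting, so reads of such pairs cannot be assigned with certainty.

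Members called in females also differed in gene length. The median length was 2671 bases for the 22 members lower in female knockout livers, 3699 for the 50 not called and 5081 for the 11 higher. Across the 83 members Spearman's rho between length and female change was 0.36, beside 0.42 across all 14003 genes. In males it was 0.17 and 0.13. Genes are not independent replicates and share the same libraries, so these are descriptions. With a length slope for each library as a model term, 0 members were called in any of the 3 comparisons by edgeR (0.15% of all genes in the mean of both sexes, 0.0714% in females and 0.129% in males). In that fit 13, 9 and 10 members had an unadjusted p under 0.05. The share of all genes at that threshold is not given for this fit, and nothing is read from these counts. All 14 calls of the mean and 27 of the 33 female calls kept their sign. In size, the mean change of Sprn grew from -2.76 to -3.22, and those of the other calls of the mean became smaller. Bnip3 went from -0.86 to -0.10, Bet1l from -0.79 to -0.23 and Mgmt from -0.69 to -0.19. Urah went from -0.51 to -0.09, Pgghg from 0.56 to 0.13 and Nlrp6 from 0.87 to 0.63. The 6 female calls that turned, none of them called in that fit, were Echs1, Paox, Slc25a22, Mrpl23, 9430038I01Rik and Gm5905. With a smooth length trend removed from each library instead, 12 members were called in the mean of both sexes and 28 in females, beside 10.9% and 30.2% of all genes. Since the slopes of the female groups do not overlap, slope and genotype cannot be told apart in females.

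**Figure D3:**
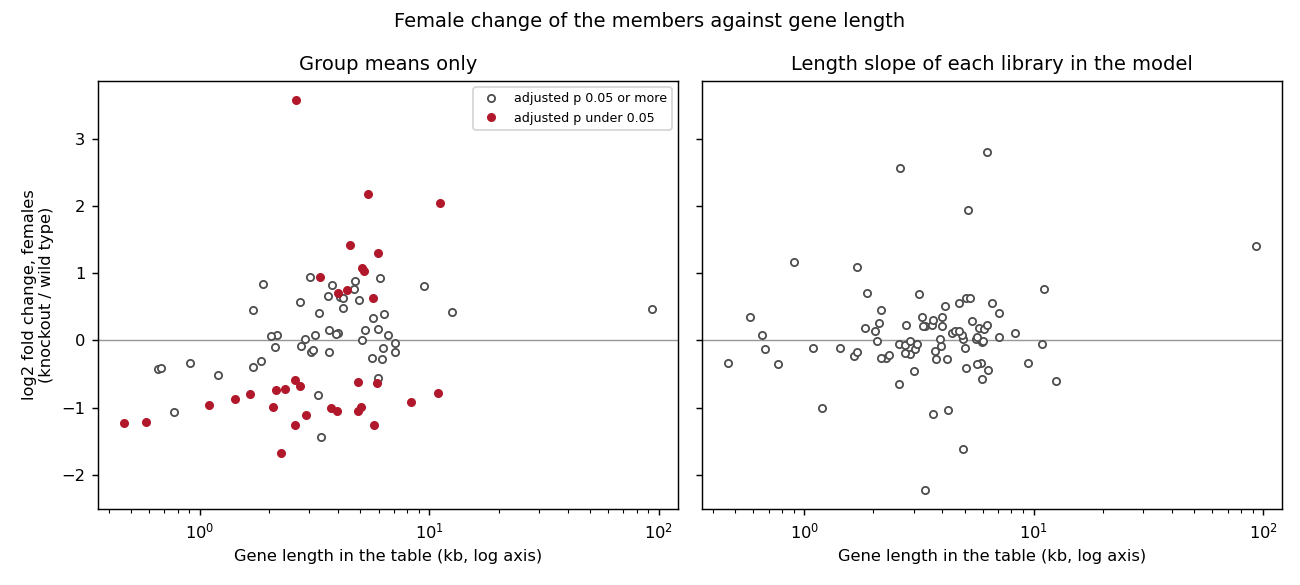
Female log2 fold change (knockout over wild type) of the 83 tested members against gene length in kb (log axis), from group means alone (left) and with a length slope per library as a model term (right). On the left the 33 called members (filled) are mostly lower among short and higher among long genes, and on the right none is called.

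The number of calls changed with single libraries, among the members as among all genes. In the mean of both sexes, 0 members were called without female knockout replicate 2 (30 with an unadjusted p under 0.05), where 18 of 14272 genes were called. Without male wild type replicate 2, 32 members and 4510 of 14456 genes were called, and without male knockout replicate 2, 33 members and 5594 of 14439 genes. Between 1 and 5 members were called without any 1 of the other 9 libraries, and between 27 and 676 genes. In females, 0 members were called without female wild type replicate 2 or female knockout replicate 2 (33 and 40 with an unadjusted p under 0.05), where 5 of 14416 and 4 of 14272 genes were called. Without female knockout replicate 3, 21 members and 2909 of 14346 genes were called. Between 22 and 41 members were called without any 1 of the other 9, and between 2927 and 5993 genes. No call of either comparison held in all 12 fits, while every call kept its sign in all of them. The shares of all genes with an unadjusted p under 0.05 are not given for these fits.

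**Figure D4:**
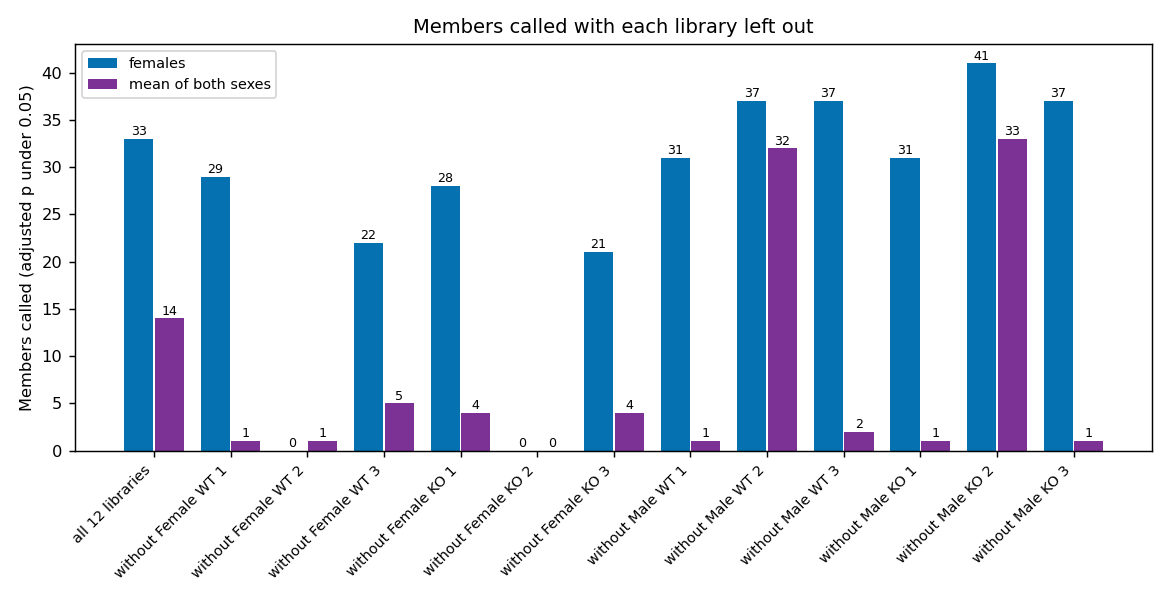
Number of members called in females and in the mean of both sexes with all 12 libraries and with each library left out in turn. Counts run from 0 to 41 in females and from 0 to 33 in the mean of both sexes.

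Levels per kb of transcript, averaged over all libraries, differed widely among the members. Ifitm3 was highest at 453 CPM per kb, followed by Urah at 178, BC024386 at 172, Ifitm2 at 156 and Bnip3 at 117. Kcnq1ot1, the antisense RNA of the Kcnq1 imprinting domain, was lowest at 0.00592. At the count minimum, the third-highest count was 10 in Dusp8 and Tnfrsf23 and 11 in Ifitm10, Lrrc27 and Tnfrsf26, all just inside, and 9 in R74862 and 7 in C330022C24Rik, just outside. In 8 members (Lrrc27, Ifitm6, Dusp8, Ifitm10, H19, Tspan32, Tnfrsf26 and Tnfrsf23) the minimum would have been missed without the libraries of at least 1 of the groups. Of these, H19 and Tnfrsf23 had all 3 libraries of a group, female knockout, at the minimum. The 4 members not tested were Dusp8, Ifitm10, Tnfrsf26 and Tnfrsf23, with third-highest counts of 10 or 11.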

How the data were processed

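RNA from 12 livers was captured on poly-T beads, per the labels' protocols, and the authors deposited raw counts per gene. HISAT2 2.0.5, DESeq2 and mm39 stand in the submitters' processing notes without a role. How reads were counted, and with which strand setting, is not stated in the sources used here. Groups came from sample titles and genotypes. The members and gene lists were chosen with earlier results of these data known.

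Genes were kept by edgeR's filterByExpr, which left 14003 genes with 99.9% of the counts. edgeR 4.0.16 in R 4.3.3 fitted 1 mean per group to all 12 libraries (TMM, 8 residual degrees of freedom, quasi-likelihood F test), with Benjamini-Hochberg adjustment over all genes tested. Its biological coefficient of variation was 25.9%. Standard errors are the absolute log2 change over the square root of F and are approximate. The test was tried on simulated data. No replicate pair matched within sampling noise (chi-square over degrees of freedom from 16.1 to 150.0). Length slopes used 9363 genes with mean log2 CPM of at least 2.

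Named in full were the 8 nearest members on each side, every member called in the mean of both sexes, the 8 strongest female calls each way, and members apart in both sexes, with members of the gene lists at a mean of at least 1 CPM given by value or range. Other named members were picked with their values in view. Some genes of the window are not reported here. Alternatives were DESeq2 1.42.0 and its size factors, other count filters, a replicate block, length corrections, the libraries of 1 sex alone and leaving out each library.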

Additional observations from a re-analysis of the deposited data

How the results depend on the processing

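Against 14 members called in the mean of both sexes, 23 were called with no filter on low counts (3900 of 25594 genes in all), 27 with the DESeq2 Wald test, 0 with the replicate block (23 of 14003 genes) and 0 with the length slope in the model. Leaving out 1 library gave 0 to 33. Against 33 in females, 0 were called with the length slope in the model and 26 with the replicate block (3365 of 14003 genes), and leaving out 1 library gave 0 to 41. In males 0 became 2 with no filter (Sprn and Shank2; 101 of 25594 genes), and leaving out 1 library gave 0 to 0. For the difference between the sexes 0 became 7 with no filter (1451 of 25594 genes) and 1 with DESeq2 (Tspan4; 83 of 8025 genes), and leaving out 1 library gave 0 to 0. The cause of these shifts was not tested. Female changes reversed with the length slope in the model in Echs1 (0.11), Paox (0.021), Slc25a22 (-0.013), Mrpl23 (0.083), 9430038I01Rik (0.18) and Gm5905 (0.36). All 14 calls of the mean and all 33 of females kept their sign under every other alternative run. DESeq2's size factors gave 14 and 34 member calls, beside 2037 and 5121 of 14003 genes. A filter of 10 counts in 3 libraries gave 14 and 33, beside 2124 and 5090 of 14247 genes. A removed length trend gave 12 and 28, beside 1527 and 4227 of 14003 genes. Deviations of same-numbered female libraries correlated at -0.22, -0.12 and -0.30 and those of male libraries at 0.06, -0.61 and -0.52. The numbers were not taken to pair the samples and the block was kept as an alternative. At this depth members near 10 counts a library, such as Sprn and H19, carry wide errors.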
